A study of Mus musculus with 30 samples.

Results

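Glycolysis in these mouse embryonic stem cells (mESCs) was followed through 10 genes: *Slc2a1*, *Hk2*, *Gpi1*, *Pfkl*, *Pfkp*, *Aldoa*, *Gapdh*, *Pgk1*, *Pkm* and *Ldha*. They were taken by name, by matching the Ensembl identifiers of the table to GENCODE M21. The matching used no measured value, but the genes were chosen with earlier results of these data known. The 10 genes are among 55240 matched genes, and all 10 are among the 11703 genes that were expressed, meaning a mean above 5 transcripts per 1000000 transcripts (TPM) in the XX Rnf12 cells. One of them, *Pgk1*, lies on the X chromosome, inside the segment removed in Deletion H, and the other 9 are autosomal. *Aldoa* has a second gene identifier with few counts, and the one with nearly all counts was used.

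The study removed large segments from one X chromosome of female mESCs and asked how the remaining copy responds. All lines descend from F1 2-1 cells, a 129/Sv x Cast/Ei hybrid, so that each gene has a 129/Sv (Mus) and a Cast/Ei (Cast) allele. All were grown in serum with LIF on irradiated feeder fibroblasts, which were removed by pre-plating before RNA was extracted. There were 30 bulk RNA-seq libraries of 17 conditions.

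XX Wildtype (2 libraries) carries no targeted change. XX Rnf12 (2 libraries) is Rnf12 +/-, and all 13 deletion lines are Rnf12 +/- as well and carry in addition a heterozygous deletion on the Mus X, with the neomycin cassette kept and with drug-selected clones. A single clone was sequenced for each of Deletions A, B, AB and C-G, and 2 clones for each of C, D, E, F, H, I, I-TEL, J and K. J and I-TEL came from a second Rnf12 +/- line, and the deletions in AB, C-G and I-TEL reach beyond the targeted segments. XCastO129 (2 libraries) kept only the Cast X and X129OCast (2 libraries) only the Mus X, after a whole X was lost during targeting. The deleted Rnf12 allele is on the Mus X. The paper lists the Cast-only XO cells of its proteomics as Rnf12+, and gives no Rnf12 genotype for X129OCast. By its account that the bulk samples came from Rnf12 +/- cells, XCastO129 would keep the intact allele and X129OCast only the deleted one. Rnf12 (*Rlim* in the annotation) stood at 193 and 211 TPM in XX Wildtype, 77.6 and 79.7 TPM in XX Rnf12, 71.2 and 77.8 TPM in XCastO129 and 3.53 TPM in both X129OCast libraries, so X129OCast differs from the other lines in Rnf12 as well. *Pgk1* is thus present in 1 copy in Deletion H, XCastO129 and X129OCast and in 2 copies in every other line. The 9 autosomal genes were taken as present in 2 copies throughout, which was not tested. Library names fall into 3 series: XX Wildtype, XX Rnf12 and Deletion E (6 libraries), the other 12 deletion lines including H (20 libraries), and the XO lines (4 libraries, the only ones read as single reads). The series of XX Rnf12, that of Deletion H and the loss of a whole X with single reads cannot be told apart from the lines they hold, so Deletion H was compared first with the other 11 lines of its own series. The paper calls the bulk replicates of XX, XCastO129 and deletion lines biological replicates from independent clones. Nothing in the labels says that XX or XO replicates came from separate cultures. The p-values measure the spread between these libraries.

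Glycolysis breaks glucose down to pyruvate and yields ATP without oxygen, and fast-growing pluripotent cells are known for high glycolytic activity and for release of lactate. Its enzymes act in 1 chain, and most of its genes are among the textbook targets of the hypoxia-inducible factor HIF-1 and of Myc. *Pgk1* encodes phosphoglycerate kinase 1, which carries out the first ATP-forming step, and is the only X-linked gene of the chain that is used in somatic cells, since its autosomal copy *Pgk2* serves the testis.

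Total counts were 8816184 to 10680026 per library in the Deletion H series, 20375194 to 21181405 in the XX Rnf12 series and 14998265 to 16494893 in the XO lines. Of these, 12.18 to 12.65% were assigned to an allele in paired libraries and 21.9 to 22.0% in single-read libraries. All 7 pluripotency markers were detected in all 30 libraries, with a summed level of 8412 to 14701 TPM. The 11 feeder fibroblast markers were also detected in every library, none at 0, with a summed level of 109 to 386 TPM in the XX Rnf12 series, 75.4 to 286 TPM in the 18 libraries of the other series that are not Deletion H, 103 and 87.8 TPM in Deletion H and 105 to 240 TPM in the XO lines. In bulk samples, fewer cells of a type and less RNA per cell cannot be told apart.

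In GRCm38 the genes lie apart from each other. *Slc2a1*, the main glucose transporter of the plasma membrane, lies at chr4:119108711-119137983 (plus strand). *Hk2*, a hexokinase that traps glucose as its phosphate, lies at chr6:82725025-82774454 (minus strand), and *Gpi1*, which turns glucose 6-phosphate into fructose 6-phosphate, at chr7:34201330-34230336 (minus strand). The phosphofructokinases of the committing step are *Pfkl* at chr10:77986947-78010083 and *Pfkp* at chr13:6579768-6648777 (both minus strand). *Aldoa*, the aldolase that splits the 6-carbon sugar, lies at chr7:126795234-126800751 (minus strand). *Gapdh*, the dehydrogenase that precedes *Pgk1*, lies at chr6:125161715-125166467 (minus strand). *Pgk1* itself lies at chrX:106187100-106203699 (plus strand). *Pkm*, whose pyruvate kinase makes the second ATP, lies at chr9:59656368-59679375, and *Ldha*, the lactate dehydrogenase subunit that regenerates NAD+, at chr7:46841475-46855627 (both plus strand).

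Promoter sequences are shown for 5 of the genes because HIF-1 is known to bind the core ACGTG, and because the first 4 hold it and *Pfkl*, the gene that was higher in the most conditions against XX Rnf12, does not. They are from RefSeq on GRCm38.p6, printed 5′ to 3′ on the strand of the gene, and capitals mark ACGTG or its reverse complement CACGT, overlapping matches included. The *Pgk1* stretch is chrX:106186850-106187099 (plus strand), that of *Ldha* chr7:46845654-46845803 (plus), of *Slc2a1* chr4:119108595-119108744 (plus), of *Hk2* chr6:82774455-82774604 (minus) and of *Pfkl* chr10:78009808-78009957 (minus).
Pgk1: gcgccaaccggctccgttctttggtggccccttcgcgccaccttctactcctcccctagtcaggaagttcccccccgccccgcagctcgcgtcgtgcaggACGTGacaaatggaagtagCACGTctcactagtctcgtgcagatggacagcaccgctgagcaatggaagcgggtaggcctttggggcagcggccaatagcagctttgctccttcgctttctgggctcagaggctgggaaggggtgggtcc
Ldha: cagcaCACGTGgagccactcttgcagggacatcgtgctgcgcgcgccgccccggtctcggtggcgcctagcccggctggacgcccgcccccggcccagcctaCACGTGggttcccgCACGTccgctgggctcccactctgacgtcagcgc
Slc2a1: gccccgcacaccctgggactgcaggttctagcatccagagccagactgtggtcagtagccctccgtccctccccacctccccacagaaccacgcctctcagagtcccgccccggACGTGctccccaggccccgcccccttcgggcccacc
Hk2: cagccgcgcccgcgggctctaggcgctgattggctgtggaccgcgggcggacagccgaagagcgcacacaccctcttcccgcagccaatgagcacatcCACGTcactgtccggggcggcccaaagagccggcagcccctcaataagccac
Pfkl: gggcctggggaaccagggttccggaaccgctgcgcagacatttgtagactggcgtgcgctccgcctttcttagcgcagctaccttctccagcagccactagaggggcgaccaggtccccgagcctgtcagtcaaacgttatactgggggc

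Of 32851 mouse promoter windows of 300 bases (250 before to 50 after a start site), 6447 (19.6%) held these letters on either strand. All 10 genes were matched, and 7 of them held a match, in 8 of their 14 windows. In *Pgk1* the matches began 150 and 131 bases before the start, in the order ACGTG and CACGT. *Ldha* held 5 in 1 of its windows, of which 4 form 2 overlapping pairs CACGTG. *Slc2a1* held 1 match at -36, *Hk2* matches at -226 and -52, and *Gapdh* 1 match at 42 bases past the start. *Aldoa* and *Pkm* held them in some of their windows only, and *Gpi1*, *Pfkl* and *Pfkp* held none in theirs. Of 20 other glycolysis genes with a promoter, 9 held a match. Such matches describe letters only.

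In XX Rnf12, the order of the levels per transcript length was led by *Aldoa*, with 2112 TPM in one library and 2938 TPM in the other. *Ldha* (1629 and 2050 TPM), *Pkm* (1603 and 1826 TPM) and *Pgk1* (1296 and 1867 TPM) followed, and their ranges overlapped. Of these, *Ldha* was highest in both libraries, while *Pkm* and *Pgk1* changed places between them. The order of the genes was not tested. *Slc2a1* stood at 427 and 792 TPM. Below it, *Gpi1* (272 and 386 TPM), *Pfkl* (257 and 362 TPM) and *Hk2* (217 and 349 TPM) again had overlapping ranges, in this order in both libraries. *Pfkp* was lower, at 106 and 186 TPM.

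*Gapdh* came last with 29.0 and 41.3 TPM, from 286 to 1578 counts per library over all 30 libraries, although *Gapdh* is known as one of the most abundant transcripts of most cells. The mouse genome holds many near-identical processed copies of *Gapdh*, so that counting could split its reads among them, and its values are uncertain. *Aldoa*, *Ldha* and *Pgk1* also have such copies, but kept many counts, 7061 to 25707 per library for *Pgk1*. Among the copies, *Ldha-ps2* held a median of 494 and *Aldoart1* of 449 counts over the 26 paired libraries, *Pgk1-ps1* 11 and *Pgk2* 0 counts.

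Deletion H removed 1 of 2 copies of *Pgk1*, and its transcript level was close to 50% of that in the other lines of the series. *Pgk1* stood at 1047 and 1134 TPM in the 2 clones of Deletion H. In the 18 libraries of the other 11 lines it ranged from 1764 to 2445 TPM, with a median of 2178 TPM. Both Deletion H clones were thus below every library with 2 copies in that series, and below all 6 libraries of the XX Rnf12 series, of which the lowest had 1296 TPM. The means were 1091 ± 62.1 TPM (SD, n = 2) and 2160 ± 202 TPM (SD, n = 18), so that Deletion H held 50.5% of the level of the other lines.

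**Figure D1:**
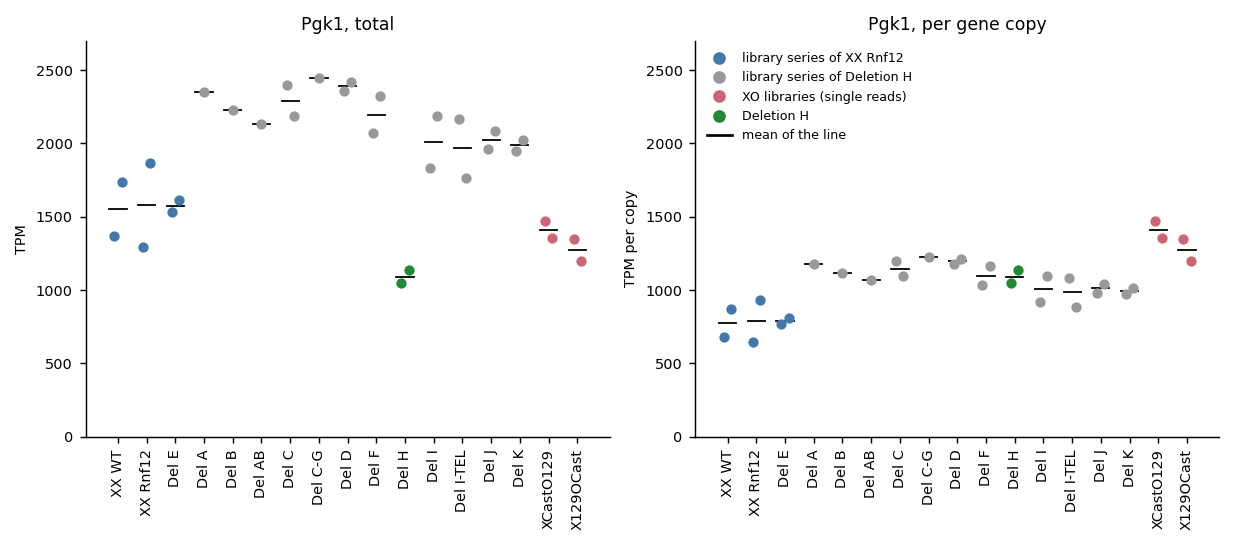
*Pgk1* level in TPM in each of the 30 libraries by line, in total and divided by the number of copies, with bars for the mean of each line. The 2 Deletion H libraries, at 1047 and 1134 TPM in total, lie below the 1764 to 2445 TPM of the other lines of their series, and per copy they lie among them.

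On the log2 scale, edgeR's quasi-likelihood test gave a change in total *Pgk1* of -1.02 (SE 0.117, 95% interval -1.26 to -0.77, adjusted p = 3.89e-05). Of all genes tested, 2.08% were called lower in Deletion H on this total scale, and a loss of 1 of 2 copies without any response of the other would give -1. An exact permutation test of the mean TPM, two-sided, gave a difference of -1070 TPM with p = 0.0105, the smallest value that 2 against 18 libraries allow. With 1 Deletion H library left out the smallest possible p was 0.105, which that test then gave.

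Per copy, *Pgk1* in Deletion H was level with the other lines. The values per copy were 1047 and 1134 TPM in Deletion H against 882 to 1222 TPM, with a median of 1089 TPM, in the other 18 libraries. Both clones lay inside that range. The difference per copy was -0.02 on the log2 scale (SE 0.107, 95% interval -0.24 to 0.21, edgeR adjusted p = 0.959), so that a rise of the remaining copy by more than 0.21 lies outside the interval. In TPM it was 10.3 per copy (exact permutation test, two-sided, p = 0.926). Leaving out either clone moved the log2 difference per copy to 0.04 or -0.07.

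The Cast allele, the one that Deletion H keeps, was level with that of the other lines in the subset of reads assigned to it. Cast reads of *Pgk1*, as counts per 1000000 Cast reads of autosomal genes (CPM) scaled by TMM factors, were 472 and 568 CPM in Deletion H. In the other 18 libraries of the series they ranged from 403 to 626, with a median of 494. The 2 clones lay within this range, and the log2 difference was 0.01 (SE 0.111, 95% interval -0.22 to 0.23, edgeR adjusted p = 1.0). These values rest on 281 and 335 Cast reads in Deletion H and on 226 to 364 Cast reads in each of the others.

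Mus reads could not serve as a measure of the number of *Pgk1* copies. In the 26 paired libraries only 0 to 7 *Pgk1* reads per library were assigned to Mus. Pooled, they were 60 of 9658 assigned reads (0.621%, Wilson 95% interval 0.483 to 0.799%, counting error only), although 24 of these libraries hold a Mus copy. In Deletion H it was 0 of 616 reads, with an upper Wilson limit of 0.62%. In X129OCast, where the Mus copy is the only one, 244 of 246 and 200 of 203 assigned reads were Mus, from 15386 and 12295 *Pgk1* reads in all. Of all *Pgk1* reads, 1.82 to 2.37% were assigned to either allele in the 18 libraries with 2 copies and 3.98 and 4.43% in Deletion H. Nearly all assigned reads of the paired libraries were thus Cast whether *Pgk1* had 1 or 2 copies, and the cause was not tested.

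Loss of a whole X gave no call for total *Pgk1* against XX Rnf12. XCastO129 held 1468 and 1351 TPM and X129OCast 1349 and 1197 TPM, against 1296 and 1867 TPM in XX Rnf12. Both XCastO129 libraries lay between the XX Rnf12 libraries, and 1 of the X129OCast libraries lay below both. In total, the log2 change was -0.04 in XCastO129 (SE 0.142, 95% interval -0.34 to 0.25, edgeR adjusted p = 0.822) and -0.16 in X129OCast (SE 0.142, 95% interval -0.46 to 0.14, edgeR adjusted p = 0.364). The difference in X129OCast was called when XX Rnf12 replicate 1 was left out, at -0.39 with adjusted p = 0.027.

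Per copy, *Pgk1* was higher in both XO lines than in XX Rnf12. The means per copy were 1410 ± 82.1 TPM in XCastO129 and 1273 ± 108 TPM in X129OCast against 791 ± 202 TPM in XX Rnf12 (SD, n = 2 each), that is 178% and 161% of it. All 4 XO libraries, at 1197 TPM per copy or more, lay above the XX Rnf12 libraries. The log2 change per copy was 0.96 in XCastO129 (SE 0.143, edgeR adjusted p = 4.76e-05) and 0.84 in X129OCast (SE 0.143, edgeR adjusted p = 9.14e-05). These were among 21.0% and 26.0% of all genes that were called higher per copy in the respective line.

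The Cast reads gave a smaller difference for XCastO129. They stood at 670 and 600 CPM there against 510 and 618 in XX Rnf12, and these ranges overlapped. The log2 difference was 0.17 (SE 0.139, 95% interval -0.11 to 0.45, edgeR adjusted p = 0.426), so the interval leaves out the 0.96 of all reads. In the single-read XCastO129 libraries 6.31 and 6.54% of *Pgk1* reads were assigned to an allele, against 2.56 to 3.20% in the 4 paired XX libraries. The XX reads include those of the Mus copy, of which almost none were assigned, so these shares are not like measures. Over all genes the share rose from at most 12.65% in paired to 21.9% or more in single-read libraries. The Cast CPM are scaled by autosomal Cast reads, so the 0.17 and the 0.96 are not like measures across read types. The part of read type in either value was not tested.

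Set against XX Rnf12 in place of its own series, *Pgk1* in Deletion H differed by 0.42 per copy (SE 0.142, 95% interval 0.13 to 0.72, edgeR adjusted p = 0.0503) and by -0.58 in total (SE 0.143, edgeR adjusted p = 0.0122). The per-copy value just missed the threshold, while 7.38% of all genes were called higher in this comparison. It ranged from 0.19 without XX Rnf12 replicate 1 to 0.71 without replicate 2, where it was called (adjusted p = 0.00295). The total was no longer called without XX Rnf12 replicate 2 (-0.29) or without either Deletion H library (-0.52 and -0.63). The same contrast per copy in the other 11 lines of the series, in which *Pgk1* has 2 copies, ran from 0.24 to 0.62, Deletion H included in the range, with a median of 0.44 over the 12 lines. Deletions A, C, C-G, D and F were called, so that *Pgk1* stood above XX Rnf12 as much in lines that keep both copies as in the line that lost 1.

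Relative to its partners in the chain, *Pgk1* made up a smaller share in every library with 1 copy. As a percentage of the summed TPM of the 9 autosomal genes, *Pgk1* was 10.3 and 10.8% in Deletion H. In the other 18 libraries of the series it ranged from 17.7 to 23.7%, with a median of 20.6%, and in the 6 libraries of the XX Rnf12 series from 19.5 to 20.9%. The XO libraries, with 11.7 to 14.2%, lay between Deletion H and all libraries with 2 copies, without overlap. The summed partners were at 10150 and 10547 TPM in Deletion H and at 9273 to 11576 TPM in the other 18 libraries of its series. They were at 9507 to 10994 TPM in the XO libraries against 6652 to 8932 TPM in the XX Rnf12 series, so the lower share in the XO lines went with higher partners, while total *Pgk1* was not called there. The share of the 2 XX Rnf12 libraries, which differed by 1.44 times in *Pgk1* itself, was 19.5 and 20.9%.

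**Figure D2:**
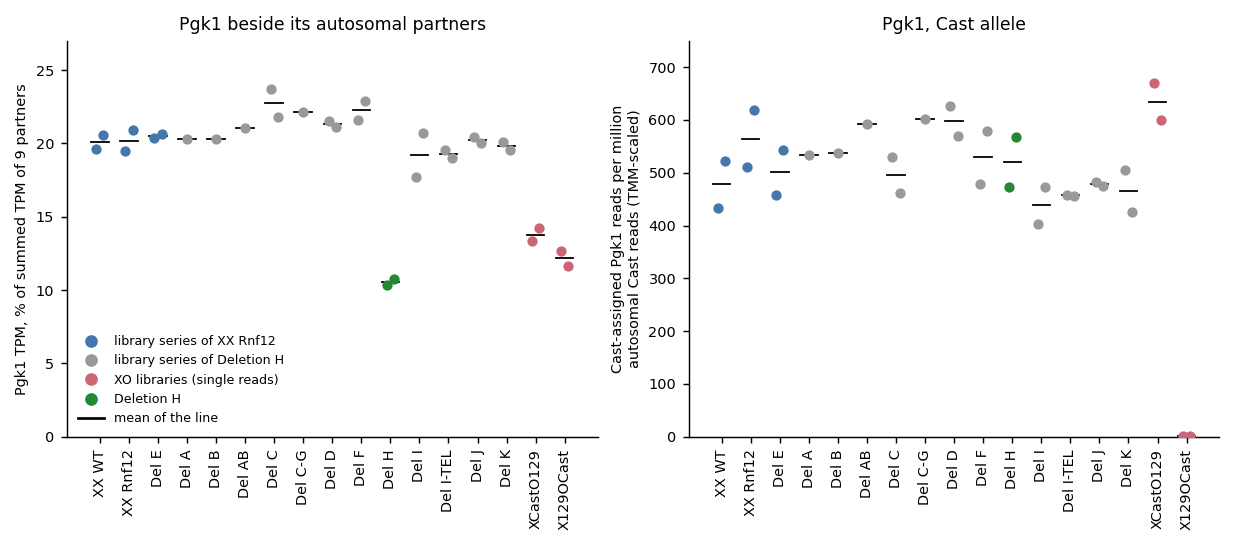
*Pgk1* as a percentage of the summed TPM of the 9 autosomal glycolysis genes, and Cast reads of *Pgk1* in CPM of autosomal Cast reads, by line, with a point for each library and a bar for the mean of the line. The share is 10.3 and 10.8% in Deletion H and 11.7 to 14.2% in the XO lines against 17.7 to 23.7% elsewhere, while the Cast level in Deletion H, 472 and 568, lies within the 403 to 626 of the other lines of its series.

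The 2 nearest expressed protein-coding genes on either side of *Pgk1*, which lost 1 copy with it in Deletion H, were not called per copy. *Cox7b*, a subunit of cytochrome c oxidase 165 kb upstream, stood at 521 and 514 TPM in Deletion H against 862 to 1169 TPM in the other lines of the series, a per-copy difference of -0.01 (SE 0.0670). *Atp7a*, a copper transporter 62.2 kb upstream, had a per-copy difference of 0.33 (SE 0.0958, edgeR adjusted p = 0.0593). Downstream, where the next such genes lie farther away, *Lpar4*, a lysophosphatidic acid receptor 717 kb from *Pgk1*, had -0.54 (95% interval -1.59 to 0.51) and *Itm2a*, a membrane protein gene 1193 kb from it, -0.53 (SE 0.179, edgeR adjusted p = 0.101). Over the 19 expressed protein-coding genes inside the deletion the median per-copy difference was -0.02, with a range from -2.52 to 0.58, 0 genes higher and 2 lower (*Hmgn5* and *Magee2*) by edgeR, and *Pgk1* took rank 10. Higher at an unadjusted p under 0.05 were 3 genes, and DESeq2 called 0 higher. In total, 17 of the 19 were called lower.

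None of the 9 autosomal genes passed the test for a change with the loss of a *Pgk1* copy. Against the other lines of the series, 0 of the 10 genes were called by edgeR per copy, where 4.96% of all genes were called in either direction. At an unadjusted p under 0.05 there were 2, *Hk2* and *Pfkp*, and DESeq2 called 0. *Hk2* stood at 411 and 418 TPM in Deletion H against 196 to 404 TPM in the other 18 libraries. *Pfkp* stood at 252 and 252 TPM against 153 to 228 TPM. In both genes the 2 clones of Deletion H lay above every other library of the series. In the other autosomal genes they lay neither both above nor both below. The share of all expressed genes with such a gap was not counted, so whether it is unusual is not known.

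The log2 differences were 0.37 for *Hk2* (SE 0.122, 95% interval 0.11 to 0.62, edgeR adjusted p = 0.0960) and 0.43 for *Pfkp* (SE 0.144, 95% interval 0.12 to 0.73, edgeR adjusted p = 0.1001). Leaving out either XX Rnf12 library, which enters this comparison through the shared estimate of the spread alone, brought both below the threshold, with adjusted p from 0.0266 to 0.0275 by edgeR. Leaving out either Deletion H clone raised them to at least 0.434. The other 7 genes had small differences: *Slc2a1* 0.16, *Pfkl* 0.07, *Gpi1* -0.03, *Pkm* -0.06, *Ldha* -0.09, *Aldoa* -0.11 and, with few counts, *Gapdh* -0.41. Their SE ranged from 0.0601 in *Pkm* to 0.206 in *Gapdh*.

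**Figure D3:**
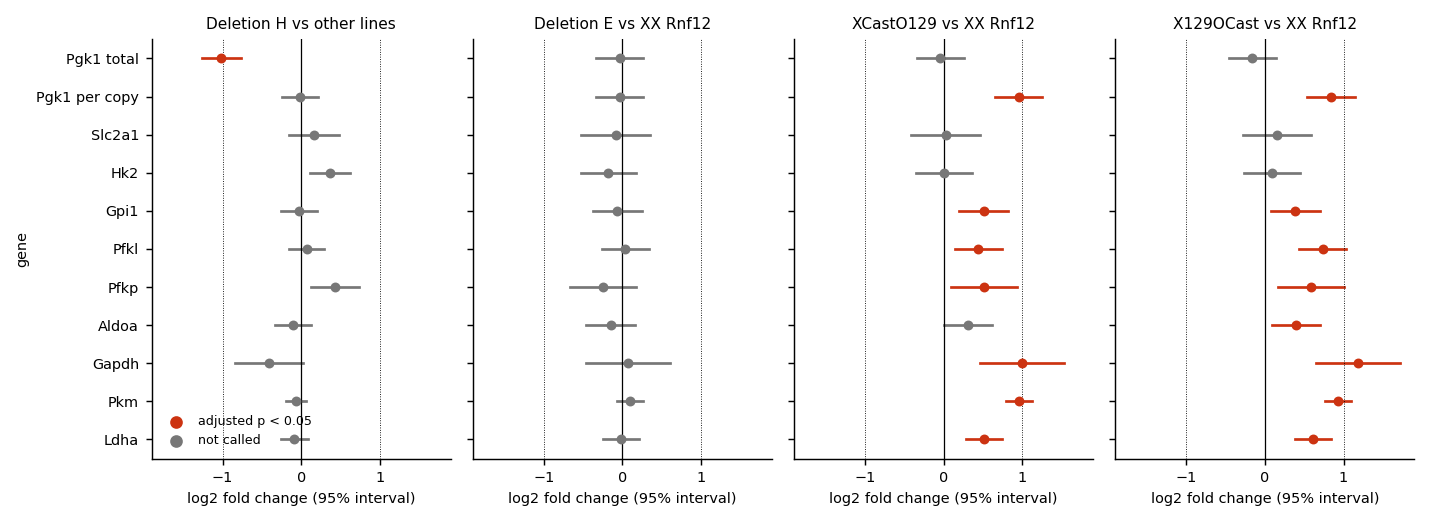
Log2 differences of the 10 glycolysis genes with 95% intervals, for *Pgk1* in total and per copy, in Deletion H against the other 11 lines of its series and in Deletion E, XCastO129 and X129OCast against XX Rnf12, with red for adjusted p under 0.05. In Deletion H total *Pgk1* lies at -1.02 and every other point between -0.41 and 0.43, while in the XO lines *Pgk1* per copy, *Pkm* and *Gapdh* lie between 0.84 and 1.18.

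Among the 12 lines of this series, single genes set single lines apart. Of 108 pairs of an autosomal gene and a line, 5 were called against the other lines (3 higher and 2 lower), where 10.5% of such pairs were called over all genes. *Hk2* was lowest in Deletion C, at 198 and 196 TPM, below all other libraries of the series, a difference of -0.79 (SE 0.136, edgeR adjusted p = 1.71e-04). *Ldha* in Deletion C, at 1800 and 1695 TPM, fell by 0.38 (SE 0.0833, edgeR adjusted p = 0.00133). *Gpi1* rose in Deletion C, at 666 and 654 TPM, by 0.42 (SE 0.107, edgeR adjusted p = 0.00454).

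Deletion C thus held 3 of the 5 pairs. The other 2 were *Gpi1* in Deletion A, at 692 TPM in its 1 library (0.52, SE 0.144, edgeR adjusted p = 0.0383), and *Ldha* in Deletion D, at 2735 and 2613 TPM (0.34, SE 0.0780, edgeR adjusted p = 0.00801). Without Deletion C replicate 1, 3 pairs were called in place of 5. The median log2 difference of all genes on the autosomes that hold these genes was 0.07 for chromosome 7 in Deletion A, -0.02 for chromosomes 6 and 7 in Deletion C and 0.06 for chromosome 7 in Deletion D, and over all 72 pairs of one of the 12 lines and such a chromosome it stayed between -0.06 and 0.07 against the other lines. *Pgk1* per copy was called by edgeR in 0 of the 12 lines, with 0 at an unadjusted p under 0.05 and 0 by DESeq2, and with values from -0.21 to 0.20.

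**Figure D4:**
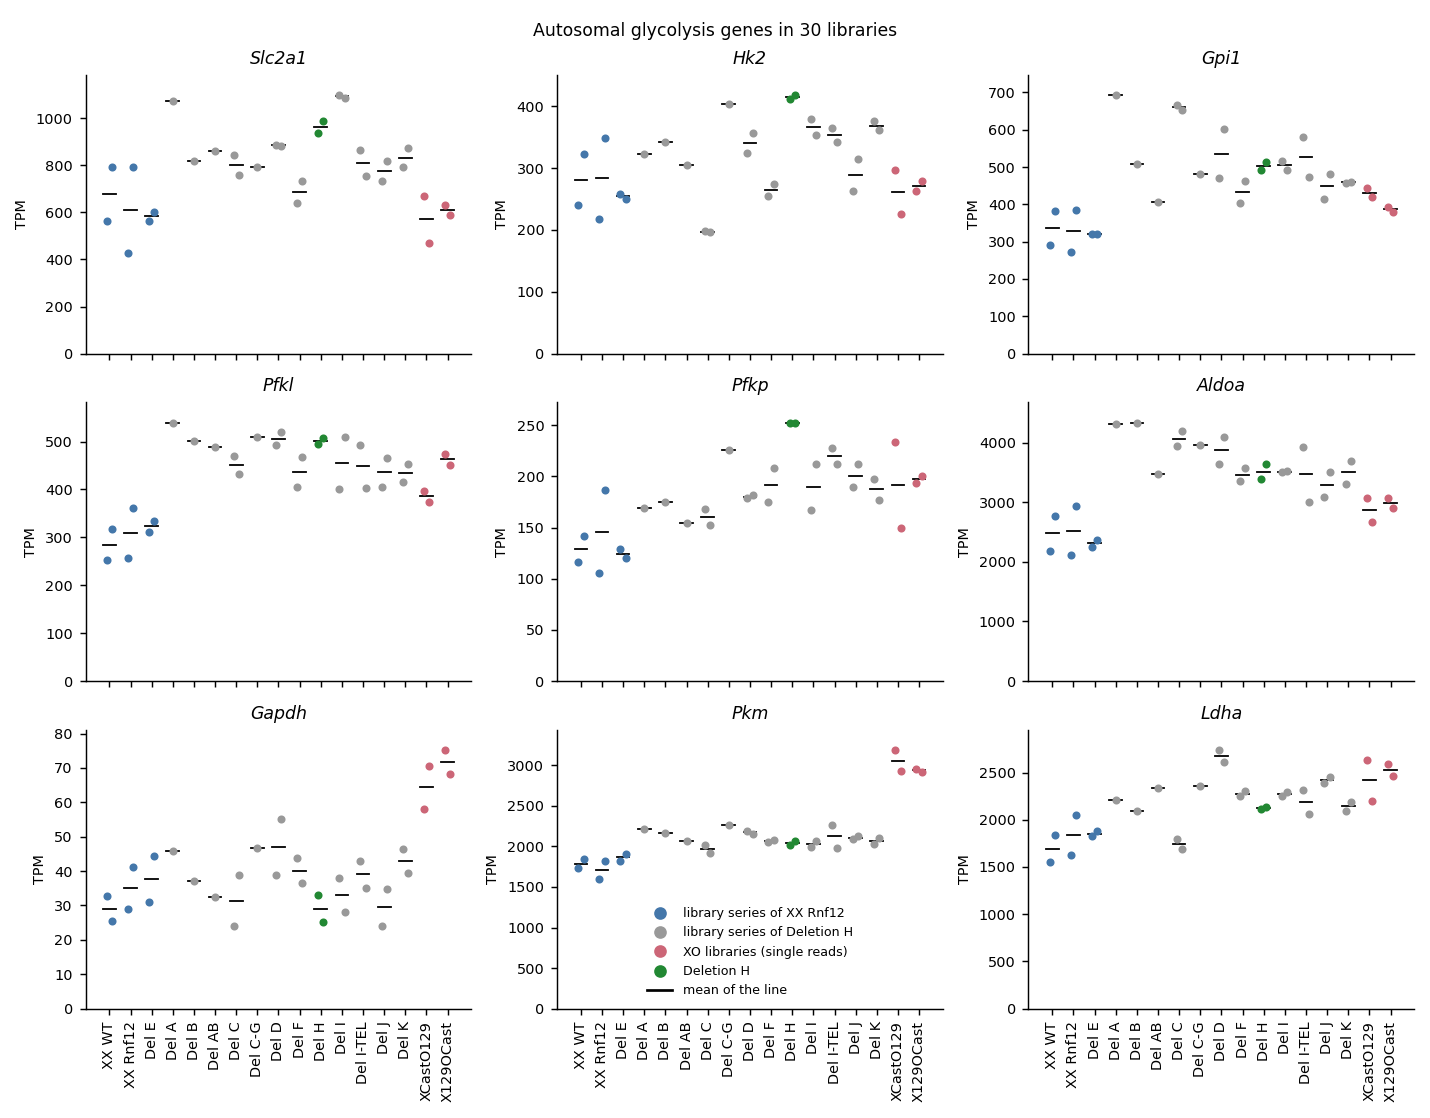
TPM of the 9 autosomal glycolysis genes in each of the 30 libraries by line, with a panel for each gene. *Hk2* is at 198 and 196 TPM in Deletion C and at 411 and 418 TPM in Deletion H, and *Pkm* is at 2922 TPM or more in all XO libraries against at most 2268 TPM in the others.

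Levels were steadiest in *Pkm* and varied most in *Gapdh* and *Hk2* over the 18 libraries of the series that are not Deletion H. *Pkm* had 2099 ± 95.8 TPM (SD, n = 18), from 1914 to 2268 TPM. *Pfkl* had 465 ± 44.9 TPM and *Aldoa* 3692 ± 396 TPM, and the range of *Aldoa* was 3009 to 4333 TPM. *Hk2* had 319 ± 59.9 TPM and *Slc2a1* 851 ± 126 TPM, with its highest values, 1098 and 1088 TPM, in Deletion I. As a description over 20 libraries, the 36 pairs of autosomal genes had correlations of log2(TPM + 1) from -0.42 to 0.73 with a median of 0.26, and 5 pairs were over 0.5. *Gpi1* and *Aldoa* were the pair at 0.73. *Pgk1* correlated with its 9 partners at -0.58 to 0.41 over these 20 libraries and at -0.17 to 0.82 over the 18 with 2 copies, where *Pfkl* (0.82), *Aldoa* (0.73) and *Pkm* (0.54) were over 0.5. Libraries share lines, depth and library name series, so no p is given.

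Over the same 20 libraries the 5 expressed genes most like *Pgk1* were *Cox7b* (r = 0.93), *Hmgn5* (0.89), *Fam183b* (0.88), *Bmp6* (0.88) and *Apool* (0.87). *Cox7b*, *Hmgn5* and *Apool* are X-linked and have 1 copy in Deletion H as *Pgk1* does. *Fam183b* on chromosome 11 and *Bmp6* on chromosome 13 were taken as present in 2 copies and were also lowest in the 2 Deletion H libraries, at 4.75 to 7.04 TPM against 19.0 to 92.4 TPM and at 2.50 to 2.64 TPM against 6.28 to 13.8 TPM. No other glycolysis gene was among the 5.

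Between the series, several of the genes differed without overlap, whatever the deletion. In 4 of the 10 genes all 18 libraries of the Deletion H series (H left out) lay above all 6 of the XX Rnf12 series, and in 0 below, where 1.45% of all expressed genes lay above. For *Gpi1* these were 403 to 692 TPM against 272 to 386 TPM. For *Pfkl* they were 402 to 539 TPM against 253 to 362 TPM. *Aldoa* stood at 3009 to 4333 TPM against 2112 to 2938 TPM.

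For *Pkm* the gap was narrow, with 1914 to 2268 TPM against 1603 to 1902 TPM. The ratio of the medians was 1.56 for *Aldoa*, 1.51 for *Gpi1*, 1.49 for *Pfkl* and 1.14 for *Pkm*. *Pgk1* in total had a ratio of 1.38, and its ranges, 1764 to 2445 and 1296 to 1867 TPM, overlapped. This count was made after the data had been seen and has no test. Of the 15 expressed other glycolysis genes 1 lay above (*Hk1*) and 1 below (*Slc16a1*), and of the 11 expressed hypoxia targets 1 above (*Higd1a*).

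Deletion E, which shares its series with XX Rnf12, stayed at the level of the XX lines. *Gpi1* stood at 319 and 320 TPM, *Slc2a1* at 565 and 602 TPM and *Pgk1*, with 2 copies, at 1533 and 1615 TPM in its 2 clones. In 8 of the 10 genes both clones lay within the range of the 4 XX libraries, and in *Gapdh* and *Pkm* 1 of the 2 did. Of the 10 genes edgeR called 0 against XX Rnf12, with 0 at an unadjusted p under 0.05 and 0 by DESeq2, where 0.273% of all genes were called. XX Rnf12 against XX Wildtype, with replicates not paired, gave 0 of 10 as well, where 3.14% of all genes were called. At an unadjusted p under 0.05 there were 0, and DESeq2 called 0.

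The 2 XX Rnf12 libraries differed from each other in the same direction in all 10 genes. Replicate 2 was higher than replicate 1 by 1.14 times in *Pkm* to 1.86 times in *Slc2a1*, with a median of 1.42. In XX Wildtype replicate 2 was higher in 9 of 10 genes, by a median of 1.26 times, and lower in *Gapdh* (0.778). The summed feeder markers went the other way, lower in replicate 2. They stood at 373 TPM in replicate 1 and 113 TPM in replicate 2 of XX Rnf12, and at 301 and 109 TPM in XX Wildtype. All 11 feeder markers were detected in each of these libraries. In Deletion E they were at 256 and 386 TPM. Their part in the levels of these genes was not tested, and counts against XX Rnf12 are given with each of its libraries left out.

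Over 16 conditions against XX Rnf12, 56 of 144 pairs of an autosomal gene and a condition were called, 55 higher and 1 lower, where 11.2% of such pairs were called higher over all genes. *Pfkl* was higher in 14 of 16 conditions, and in all 12 lines of the Deletion H series, with log2 changes there from 0.46 to 0.80. *Gpi1*, *Aldoa* and *Pkm* were higher in 9 conditions each. *Ldha* and *Slc2a1* were higher in 4 each, *Pfkp* in 3 and *Gapdh* in 2. *Hk2* was higher in Deletion H (0.51) and lower in Deletion C (-0.55). The 56 pairs became 16 without XX Rnf12 replicate 1 and 106 without replicate 2.

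For Deletion H alone 6 of the 9 autosomal genes were called higher than in XX Rnf12, where 7.38% of all genes were: *Pfkp* (0.75), *Pfkl* (0.66), *Slc2a1* (0.62), *Gpi1* (0.57), *Hk2* (0.51) and *Aldoa* (0.44). DESeq2 also called 6. Of the 8 expressed feeder markers 4 were called lower in the same comparison, and the share of all genes called lower was not counted. The median of these markers was -1.87 beside 0.003 over all genes, and their part in the comparison was not tested. By edgeR the count of autosomal genes was 0 without XX Rnf12 replicate 1, 8 without replicate 2, 1 without either Deletion H library and 3 without either X129OCast library. Because the 12 lines share these 2 reference libraries, their values against it are not independent of each other.

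**Figure D5:**
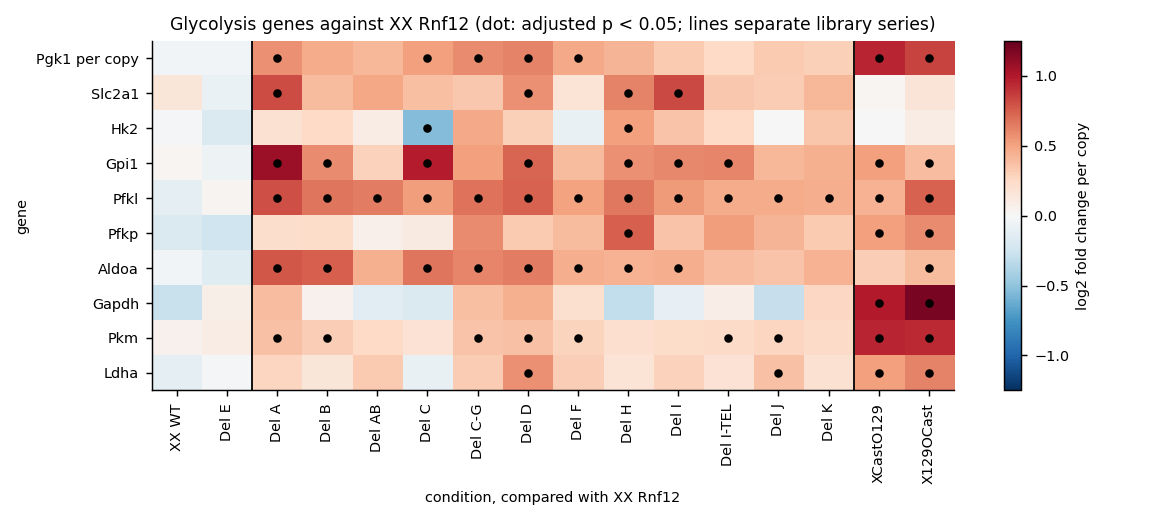
Heat map of log2 differences per copy against XX Rnf12, with a row for each of the 10 glycolysis genes and a column for each of the other 16 conditions, red for higher and blue for lower, a dot for adjusted p under 0.05 and lines between the library series. *Pfkl* lies between 0.46 and 0.80 in the 12 lines of the Deletion H series, and *Pkm*, *Gapdh* and *Pgk1* are highest in the XO lines.

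In the XO lines, every autosomal gene was taken as present in 2 copies, which was not tested. There, 6 of the 9 autosomal genes in XCastO129 and 7 in X129OCast were called higher than in XX Rnf12, where 21.0% and 26.0% of all genes were. The pluripotency markers moved in the same comparisons: 3 of 7 in XCastO129 and 4 of 7 in X129OCast were called lower, where 20.4% and 27.5% of all genes were. *Sox2* stood at 314 to 409 TPM in the XO libraries against 697 to 749 TPM in the 4 XX libraries. *Nanog* stood at 312 to 526 against 926 to 1089 TPM, and *Esrrb* at 491 to 701 against 775 to 891 TPM. The other markers overlapped between XO and XX libraries. They were *Pou5f1* (1882 to 2016 against 1612 to 1958 TPM), *Dppa5a* (4683 to 5919 against 4144 to 5228 TPM), *Zfp42* (704 to 1073 against 722 to 914 TPM) and *Klf4* (251 to 432 against 266 to 672 TPM). The part of these markers, or of the Rnf12 level in X129OCast, in the glycolysis values was not tested. *Pkm* changed most firmly, with 3185 and 2932 TPM in XCastO129 and 2952 and 2922 TPM in X129OCast against 1603 and 1826 TPM. All 4 XO libraries lay above every other library of the study. The log2 changes of *Pkm* were 0.96 (SE 0.0804, edgeR adjusted p = 5.00e-08) and 0.93 (SE 0.0803, edgeR adjusted p = 5.17e-08).

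*Ldha*, which ends the chain after *Pkm*, stood at 2633 and 2200 TPM in XCastO129 and 2594 and 2467 TPM in X129OCast against 1629 and 2050 TPM, and rose by 0.51 and 0.62. *Pfkl* rose by 0.44 and 0.74, *Gpi1* by 0.51 and 0.39, and *Pfkp* by 0.51 and 0.59. *Aldoa* was called in X129OCast (0.40) and had 0.31 in XCastO129 (edgeR adjusted p = 0.102). *Hk2*, with 0.00 and 0.09, and *Slc2a1*, with 0.03 and 0.16, were not called, and their 95% intervals in XCastO129 were -0.35 to 0.36 and -0.41 to 0.46. Without XX Rnf12 replicate 2, *Slc2a1* was called in XCastO129 (0.53) and both genes in X129OCast (*Hk2* at 0.47 and *Slc2a1* at 0.66).

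*Gapdh* rose by 0.99 in XCastO129 and 1.18 in X129OCast, from 29.0 and 41.3 TPM in XX Rnf12 to 58.1 and 70.6 TPM and to 75.1 and 68.2 TPM. Copies of the gene moved with the read type in these libraries: *Gapdh-ps15* held 0 to 2 counts per paired library and 27 to 42 counts per single-read library, and *Gapdh-ps14* 10 to 26 against 0 to 3. For *Pgk1-rs7* it was 0 to 2 against 21 to 40 counts, and for *Ldha-ps* 0 to 5 against 23 to 55, which are few beside the 12295 counts or more of *Pgk1* in these libraries. Mus shares of assigned reads moved with the read type as well, from 35.4% in the 26 paired to 44.6% in the 4 single-read libraries for *Pkm* and from 67.3 to 58.0% for *Gpi1*, while for *Hk2* they were 55.0 and 54.2% and for *Pfkp* 51.1 and 51.8%. The part of read type in the XO differences was not tested.

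Leaving out libraries changed these counts. Without XX Rnf12 replicate 1, 2 autosomal genes were called in XCastO129 (*Pkm* at 0.87 and *Ldha* at 0.36) and 4 in X129OCast (*Gapdh*, *Ldha*, *Pfkl* and *Pkm*). Without replicate 2 it was 8 and 9. Without XCastO129 replicate 1, 3 were called in XCastO129, and without either X129OCast library 4 in X129OCast. *Pkm* and *Ldha* were called in both lines with either XX Rnf12 library left out. X129OCast against XCastO129 gave 0 of 10 called by edgeR, where 9.03% of all genes were called, with 1 at an unadjusted p under 0.05 (*Pfkl*, 0.30) and 0 by DESeq2.

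The other genes of the chain were read from a list of 23, of which 15 were expressed. In Deletion H against the other lines 1 was called, *Slc16a1*, a lactate transporter, with 206 and 221 TPM against 132 to 208 TPM (0.30, SE 0.0561, edgeR adjusted p = 0.00498), and it was not called without either Deletion H library. The median of the 15 was -0.07. In XCastO129 4 of 15 rose and 1 fell, beside the 21.0% and 20.4% of all genes, with a median of 0.29 against -0.01 over all genes. *Eno3* (1.61), an enolase, *Pgam1* (0.99), the phosphoglycerate mutase of the step after *Pgk1*, and *Tpi1* (0.68), triosephosphate isomerase, had the largest rises, and *Slc16a1* was the one that fell (-0.62). In X129OCast 8 of 15 rose and 3 fell, beside 26.0% and 27.5%, with a median of 0.40 against -0.03 over all genes. *Eno3* (1.18), *Pgam1* (1.14) and the muscle phosphofructokinase *Pfkm* (1.03) led the rises, and *Eno2* (-1.81), *Slc2a3* (-0.90), a glucose transporter, and *Slc16a1* (-0.69) the falls. In Deletion E against XX Rnf12 edgeR called 0 of 15, with 0 at an unadjusted p under 0.05 and 0 by DESeq2.

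Of 23 regulators and branch enzymes 20 were expressed. In Deletion H against the other lines 1 was called, *Pdha1*, the E1 subunit of pyruvate dehydrogenase, at -0.32 (SE 0.0663, edgeR adjusted p = 0.00923). In XCastO129 2 of 20 rose, below the 21.0% of all genes, and 4 fell, near the 20.4%: *Pdk1* (0.82), a kinase that inhibits pyruvate dehydrogenase, and *Pgd* (0.24), of the pentose phosphate branch, rose, and *Mpc2* (-0.90), of the mitochondrial pyruvate carrier, *Pdk2* (-0.87) and *Hif1a* (-0.83) fell most. In X129OCast 5 of 20 rose and 6 fell, both near the 26.0% and 27.5% of all genes, with *Pdk1* (0.74), *Pdha1* (0.53) and *Pgd* (0.46) leading the rises and *Mpc2* (-1.66), *Hif1a* (-0.83) and *Pdk3* (-0.82) the falls.

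Hypoxia targets outside glycolysis were listed to 12, of which 11 were expressed. In Deletion H against the other lines edgeR called 0 of them, with 2 at an unadjusted p under 0.05, 0 by DESeq2 and a median of 0.10. Against XX Rnf12 7 of 11 were called higher in Deletion H, beside 7.38% of all genes, with a median of 0.88, in the comparison that crosses the library name series and in which the feeder markers were lower. In XCastO129 2 of 11 rose, *Ankrd37* (1.103) and *Higd1a* (0.70), and *Adm* (-1.001) fell, beside 21.0% and 20.4% of all genes. In X129OCast *Higd1a* (0.56) rose, and *Vegfa* (-1.44), *Adm* (-1.17) and *Kdm3a* (-0.51) fell, beside 26.0% and 27.5% of all genes.

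The 4 X-linked genes of the list of regulators show how *Pgk1* compares where other deletions remove 1 copy. *Pdk3*, with 1 copy in Deletions C-G and F, differed from the other lines by 0.28 and 0.15 per copy and by -0.63 and -0.76 in total. Deletions C-G and F are each in the other's reference, so a line with 1 copy of *Pdk3* enters both totals. The reference of *Pgk1* in Deletion H holds only lines that keep both copies. *G6pdx*, glucose 6-phosphate dehydrogenase, differed by 0.05 per copy and -0.95 in total in Deletion C-G, and in Deletion E by -0.03 and -1.03 from XX Rnf12. *Pdha1* in I-TEL had -0.09 and -1.09. *Pfkfb1*, an isoform of the enzyme that sets the level of the activator of phosphofructokinase, had -0.19 and -1.10 in I-TEL and -0.23 and -1.14 in K. Both lines have 1 copy of *Pfkfb1*, and each is in the other's reference.

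None of these per-copy values was called against the other lines, as that of *Pgk1* in Deletion H was not, while against XX Rnf12 *Pdk3* was called higher per copy in Deletion C-G (0.64, edgeR adjusted p = 0.00737) and in Deletion F (0.52, edgeR adjusted p = 0.00533). *G6pdx* in Deletion E has XX Rnf12 as its only reference here and was not called. In XCastO129 the per-copy values were -0.42 for *Pfkfb1* (called lower), -0.10 for *Pdk3*, 0.19 for *Pdha1* and 0.22 for *G6pdx* (edgeR adjusted p = 0.0523) beside the 0.96 of *Pgk1*. In X129OCast they were 0.05 for *Pfkfb1*, -0.82 for *Pdk3* (called lower), 0.53 for *Pdha1* and 0.43 for *G6pdx* (both called higher) beside 0.84 for *Pgk1*.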

How the data were processed

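Bulk RNA-seq of 30 libraries was used. The authors used Trim Galore 0.6.7 for trimming, HISAT2 2.2.1 for alignment to an mm10 genome masked at strain SNPs, SNPsplit to divide alleles and SAMtools 1.10 to merge files. The deposited table holds raw counts per gene, without normalization, for all reads, Mus reads and Cast reads of each library. The methods name featureCounts and the submitters' notes HTSeq 0.12.4 as the counter.

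TPM were computed from these counts with GENCODE M21 exon lengths. *Pgk1* TPM per copy was TPM divided by copy number. With R 4.3.3, edgeR 4.0.16 (quasi-likelihood) fitted 1 term for each condition over the 30 libraries, with TMM factors of autosomal genes, log copy number as offset (per copy) or none (total), and Benjamini-Hochberg adjustment over 11703 expressed genes at 0.05. The test against other lines set Deletion H against the mean of 11 lines. DESeq2 1.42.0 was the other tool. Single values used exact permutation tests (Python 3.11.15, numpy 2.4.6, scipy 1.17.1, pandas 2.3.3), and figures matplotlib 3.10.9.

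In simulated data the Deletion H test found 56 of 100 genes altered by 0.5 on the log2 scale, 96 of 100 altered by 1, and 4 of 11503 unaltered genes. For XCastO129 it called 27 of 100, 89 of 100 and 6 of 11503.

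The genes and lists were chosen with earlier results of these data known. Named are the 10 genes, called genes of the lists (at most 3 per direction), the X-linked regulators, the 2 nearest expressed neighbours of *Pgk1* on each side, the 5 genes most like it, and copies by sequence. *Hmgn5* and *Magee2* inside Deletion H were picked with their values in view. Other settings tried were the tool, scaling, filters, the groups fitted, a replicate block and leaving out replicates.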

Additional observations from a re-analysis of the deposited data

Results flagged for a closer look

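For 5 of the 10 genes the effect of losing a whole X (XCastO129 against XX Rnf12) and the effect of Deletion H (against the other lines of its series) differed by a test of the difference itself, an edgeR contrast within the fit that was added after seeing the data. *Pgk1* per copy differed by 0.97 (SE 0.180, edgeR adjusted p = 4.69e-04). It was at 0.96 in XCastO129 and -0.02 in Deletion H, although both lines keep 1 Cast copy. In Cast reads alone the same difference was 0.16 (SE 0.179, 95% interval -0.20 to 0.53, edgeR adjusted p = 0.651). That value is scaled by autosomal Cast reads, and the share of reads assigned to an allele differed between paired and single reads. It is thus not a like measure to the 0.97.

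The 4 autosomal genes were *Gapdh* with a difference of 1.40 (SE 0.327, edgeR adjusted p = 0.00298), *Pkm* with 1.02 (SE 0.101, edgeR adjusted p = 7.10e-07), *Ldha* with 0.60 (SE 0.135, edgeR adjusted p = 0.00217) and *Gpi1* with 0.54 (SE 0.186, edgeR adjusted p = 0.0310). All 4 were taken as present in 2 copies in both lines. The other 5 genes, from -0.36 for *Hk2* to 0.41 for *Aldoa*, did not pass. The references, the library series and the read type differ between these effects and cannot be told apart from the kind of X loss.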

How the results depend on the processing

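No result changed sign past the threshold under any alternative. Of 290 comparisons of a result with an alternative, 267 kept direction and side of the threshold or, for counts, stayed within 1.5 times. *Pgk1* per copy in Deletion H against XX Rnf12 was called by DESeq2 (0.41, adjusted p = 0.0325), without a filter (0.39, edgeR adjusted p = 2.94e-04) and with the replicate block (0.43, edgeR adjusted p = 0.0499), and ran from 0.19 to 0.71 with single libraries left out. Its total there was not called with only the compared groups in the fit (-0.59, edgeR adjusted p = 0.132) and ran from -0.81 to -0.29. X129OCast in total ran from -0.39 to 0.12 and was called without XX Rnf12 replicate 1. The 56 pairs against XX Rnf12 became 12 with only the compared groups and 1 to 106 with replicates left out, where 16 was without XX Rnf12 replicate 1, and 1 and 3 were without replicate 1 or 2 of every line with 2 clones, and the 5 pairs within the series became 22 without a filter, 13 with only the compared groups and 3 to 5 with replicates left out. Without a filter 1 of the 10 genes was called between the XO lines and 3 other glycolysis genes in Deletion H, and the latter count was 0 to 1 with replicates left out. The permutation difference of total *Pgk1* ran from -1114 to -1026 TPM, with p = 0.105 where 1 clone was left out, the smallest possible (exact permutation test, two-sided). The cause of these changes was not tested, apart from the smaller number of libraries.

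Against the other lines, *Pgk1* in Deletion H stayed between -0.07 and 0.04 per copy and between -1.07 and -0.96 in total, and was called in total, with each library left out and, added after seeing the data, with both Deletion C or both Deletion I libraries left out. Over all groups, replicate numbers do not pair the libraries. Deviations of same-numbered libraries correlated above 0.1 in 19 of 78 pairs of groups, from -0.38 to 0.71. The highest, 0.71, was between XX Wildtype and XX Rnf12, whose replicates thus differed alike. These groups were compared without pairing, and a pairing of them alone was not tested. The replicate block, 1 shared term for all groups, changed no other call and gave 57 and 5 pairs in place of 56 and 5. With the length of the longest transcript, TPM in XX Rnf12 moved to 509 for *Gpi1*, 424 for *Pfkl*, 3637 for *Aldoa*, 2702 for *Pkm* and 2571 for *Ldha*. Depth limits the allele values of *Pgk1*, which rest on 226 to 729 Cast reads per paired library.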
